A study of Homo sapiens with 2 samples.

Results

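Semaphorins, plexins, slits and ROBO receptors are ligands and receptors of cell guidance, and 36 human genes of these families were followed here by their NCBI gene numbers among 18518 genes listed in the deposited tables. They comprised 20 semaphorins, 9 plexins, 3 SLIT genes and 4 ROBO genes. The tables came from RNA sequencing of 2 libraries, made from cells on day 3 of a protocol that leads to blood. The cells were H1, an established line of human embryonic stem cells, either wild type or labelled MEIS1-/-, that is, with MEIS1 deleted, and each genotype had 1 library. Per the labels, both cultures were given activin A (40 ng/ml) with BMP4 (50 ng/ml) for 2 days, and then VEGF (40 ng/ml) with bFGF (50 ng/ml) for 2 days, a step that day 3 falls within. The labels did not give the deleted part of MEIS1, the number of clones or whether cultures were separate. The families were chosen by their expected counts in this same contrast, in which most semaphorins were lower, so the direction of their ratios is a description and no test is given.

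Semaphorins are secreted or membrane-bound proteins that bind plexins, and the secreted class 3 members mostly need a neuropilin beside the plexin. Plexins act on small GTPases and the actin skeleton, which turns or repels a migrating cell or a growing axon. SLIT proteins are secreted and bind ROBO receptors with similar outcomes. Outside the nervous system both systems are known for guiding blood vessels, endothelial cells and heart precursors.

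With 1 library per genotype, every difference compares these 2 libraries and there was no replicate check. Expected counts, which are estimated read counts that need not be whole, summed to 5202877 for wild type and 5296431 for the library labelled MEIS1-/- after rounding. The families held 12826 (0.247%) and 10782 (0.204%) of them. MEIS1 itself had 89 and 68 counts, or 5.34 and 4.01 FPKM, with a ratio of 0.759 whose interval (0.543 to 1.05) included 1, so its level did not separate the genotype labels. Of the 36 genes, 35 were listed in both libraries. ROBO4 was listed in the library labelled MEIS1-/- alone, and 34 genes reached the minimum of 10 counts in 1 library or more and were compared. A gene is called higher or lower in the library labelled MEIS1-/- when the exact 95% counting interval of its scaled ratio excluded 1. Intervals cover counting error only.

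Semaphorins were lower more often than higher, and plexins went both ways. Of the SLIT genes 1 was higher and 0 lower, and of the ROBO genes 1 was lower and 0 higher. Of 20 semaphorins, 10 were lower and 3 higher, and the interval of 7 included 1. Of 9 plexins, 2 were lower, 3 higher and 4 included 1. Over all 34 genes compared, 13 were lower and 7 higher, where 14.7% of all 14381 genes compared were lower and 15.4% higher by the same rule. Ratios of at least 1.5-fold with such an interval were found for 9 genes in the lower direction (background 6.21%) and 2 in the higher (background 5.75%). The median log2 ratio was -0.31 for semaphorins and 0.18 for plexins, beside 0.0033 for all genes compared. Among plexins with at least 50 counts the median turned to -0.11, since 3 sparse plexins with ratios above 1 dropped out. Fewer cells that express a gene and less RNA per cell cannot be told apart in such bulk libraries.

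**Figure D1:**
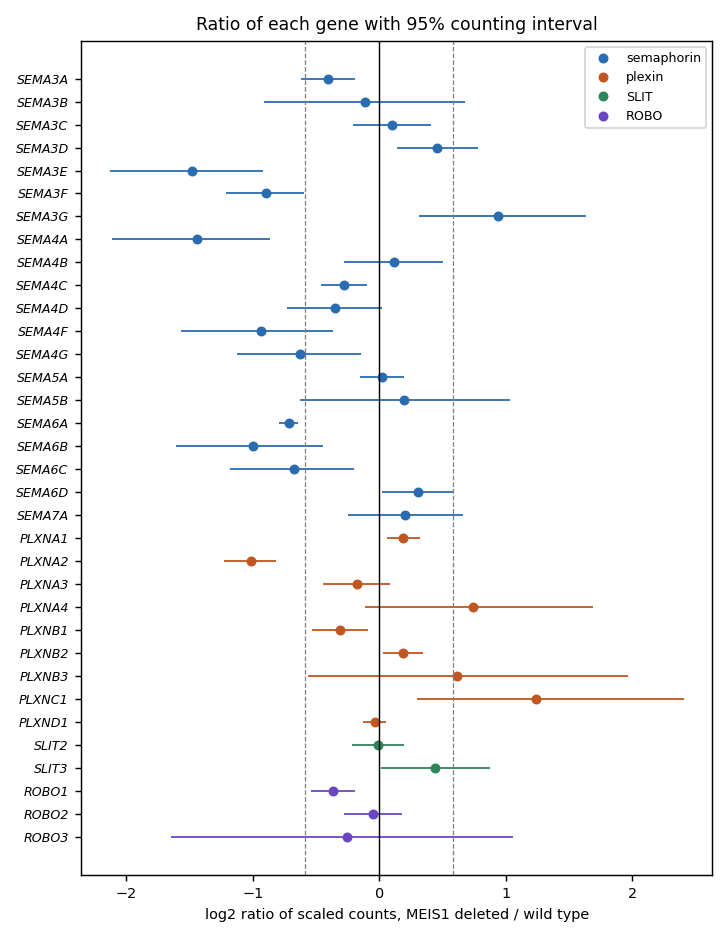
Log2 ratio of scaled counts (horizontal axis, library labelled MEIS1 deleted over wild type) for the 34 genes compared, coloured by family. Points are ratios, bars are exact 95% counting intervals, the solid line marks no difference and the dashed lines 1.5-fold. SEMA3E and SEMA4A lie farthest to the left and PLXNC1 farthest to the right.

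SEMA3E had the lowest ratio of the families. It encodes a secreted semaphorin that binds the plexin PLXND1 without a neuropilin and is known to repel growing vessels. Wild type gave 93 counts (2.81 FPKM) and the library labelled MEIS1-/- 33 counts (0.97 FPKM). SEMA3E was thus 2.79-fold lower, with an interval of 1.90 to 4.37. SEMA4A, a membrane-bound semaphorin known from immune cells and the retina, had 85 and 31 counts (5.01 and 1.81 FPKM) and was 2.71-fold lower (1.82 to 4.33). PLXNA2, a receptor for class 6 semaphorins and, with neuropilins, for class 3, had 588 and 293 counts (9.76 and 4.78 FPKM) and was 2.02-fold lower (1.76 to 2.34). These were the 3 genes of the families at least 2-fold lower (background 2.95%). SEMA6B fell just short of that limit at 1.995-fold lower, and passed it with total counts (log2 ratio -1.01) or a pseudocount of 0.5 (-1.01). On FPKM with a pseudocount of 1, which shrinks ratios of low genes, SEMA3E (-0.95) and PLXNA2 (-0.90) did not reach 2-fold. PLXNC1 was the 1 gene at least 2-fold higher (background 2.9%), on few counts, and its log2 ratio moved from 1.24 to 0.52 on that FPKM scale.

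The promoters of these genes are shown because they differed most between the libraries, together with that of SEMA3G, the other gene at least 1.5-fold higher. They are RefSeq sequences of build GRCh38.p14, which is not the build of the files, and run from 250 bases before to 50 bases after the most upstream start listed for each gene. Capitals mark TGACAG, the core letters bound by MEIS factors, and its reverse complement CTGTCA.
SEMA3E: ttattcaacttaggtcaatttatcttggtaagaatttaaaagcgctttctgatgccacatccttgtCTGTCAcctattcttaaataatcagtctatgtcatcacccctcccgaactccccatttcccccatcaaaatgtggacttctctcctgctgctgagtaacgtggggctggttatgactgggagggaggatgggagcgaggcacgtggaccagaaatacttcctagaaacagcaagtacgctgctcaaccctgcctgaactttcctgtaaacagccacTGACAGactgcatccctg
SEMA4A: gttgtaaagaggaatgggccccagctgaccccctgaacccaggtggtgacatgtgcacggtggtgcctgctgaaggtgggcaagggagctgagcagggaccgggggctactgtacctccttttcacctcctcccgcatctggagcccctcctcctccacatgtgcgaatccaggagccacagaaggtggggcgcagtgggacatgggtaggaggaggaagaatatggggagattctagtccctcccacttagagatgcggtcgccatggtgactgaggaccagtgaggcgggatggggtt
PLXNA2: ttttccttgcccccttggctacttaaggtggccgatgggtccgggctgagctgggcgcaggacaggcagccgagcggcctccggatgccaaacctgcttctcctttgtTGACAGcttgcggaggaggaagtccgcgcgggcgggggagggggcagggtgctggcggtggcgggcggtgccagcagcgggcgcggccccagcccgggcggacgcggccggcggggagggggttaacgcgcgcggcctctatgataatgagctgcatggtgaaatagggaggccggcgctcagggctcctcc
SEMA3G: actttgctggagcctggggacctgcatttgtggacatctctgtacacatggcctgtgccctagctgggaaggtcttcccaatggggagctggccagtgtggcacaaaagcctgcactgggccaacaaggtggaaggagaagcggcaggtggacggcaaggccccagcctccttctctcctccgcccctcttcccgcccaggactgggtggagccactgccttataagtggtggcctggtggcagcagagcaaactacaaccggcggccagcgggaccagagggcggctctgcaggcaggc
PLXNC1: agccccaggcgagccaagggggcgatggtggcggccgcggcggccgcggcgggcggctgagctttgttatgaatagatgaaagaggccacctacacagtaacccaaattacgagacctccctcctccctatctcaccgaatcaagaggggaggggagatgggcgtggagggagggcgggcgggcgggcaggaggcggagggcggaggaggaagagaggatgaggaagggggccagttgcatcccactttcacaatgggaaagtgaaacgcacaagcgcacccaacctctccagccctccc
In the SEMA3E promoter (chr7:83649090-83649389, minus strand) the letters stood 184 bases before the start on the reverse strand and 32 bases after it on the forward strand. The PLXNA2 promoter (chr1:208244335-208244634, minus strand) held them 142 bases before the start. The promoters shown for SEMA4A (chr1:156149694-156149993, plus strand), SEMA3G (chr3:52445054-52445353, minus strand) and PLXNC1 (chr12:94148327-94148626, plus strand) did not hold them. SEMA4A has 4 promoters in the table, and 2 of them, at starts farther downstream, did hold the letters. The table held 58 promoters for 33 of the 36 genes, several genes having more than 1 start, and SEMA3A, SEMA6A and SEMA6B were not among them. Of the 58 promoters 9 (15.5%) held TGACAG on either strand, beside 15.8% of all 35116 promoters of this length and 13.5% of the 16588 promoters of genes compared. The share was 4 of 14 promoters (28.6%) for genes of the families at least 1.5-fold lower, 5 of 19 (26.3%) for those called lower and 2 of 10 (20.0%) for those called higher. Promoters of 1 gene are not independent, and the 4 promoters belong to 3 genes. By gene, 3 of 7 at least 1.5-fold lower held the letters in 1 promoter or more. So did 4 of 10 called lower, 2 of 7 called higher, 8 of all 33 and 1990 of 11349 genes compared. The 7 genes at least 1.5-fold lower had 14 promoters and the 7 called higher had 10, so chances of a match per gene differed. The share among all lower genes was not computed, and no test is given for these small numbers. The median GC content was 64.7% for the 58 and 64.3% for genes compared. A match describes letters and not binding, and the data give no start site for the reads.

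Secreted class 3 semaphorins split. SEMA3A, the classical repellent that acts through neuropilin 1 and plexin A receptors, had 423 and 323 counts (14.23 and 10.68 FPKM) and was 1.32-fold lower (1.14 to 1.53). SEMA3F, which acts through neuropilin 2, had 253 and 137 counts (13.73 and 7.30 FPKM) and was 1.86-fold lower (1.51 to 2.31). The other direction was seen for 2 genes of the class. SEMA3G, which endothelium makes in the embryo, had 31 and 61 counts (1.26 and 2.44 FPKM) and was 1.92-fold higher (1.24 to 3.11). SEMA3D, known for guiding endothelial and heart cells, had 139 and 193 counts (4.22 and 5.76 FPKM) and was 1.37-fold higher (1.10 to 1.72). SEMA3C, needed for the outflow tract of the heart, had 168 and 182 counts, with a ratio of 1.07 (0.865 to 1.33), and SEMA3B had 30 and 28, with a ratio of 0.926 (0.532 to 1.60).

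Neighbouring class 3 genes differed from each other. SEMA3E, SEMA3A and SEMA3D follow each other on chromosome 7 with no other protein-coding gene between them in the RefSeq gene table of GRCh38.p14. Their ratios were 0.358 (0.229 to 0.528), 0.756 (0.652 to 0.876) and 1.37 (1.10 to 1.72), and these intervals did not overlap. On the side of SEMA3E the next protein-coding genes were PCLO, with 37 and 22 counts and a ratio whose interval included 1, and CACNA2D1, a calcium channel subunit gene, with 241 and 135 counts and a log2 ratio of -0.85. On the side of SEMA3D, GRM3 was below the minimum and ELAPOR2 had 404 and 390 counts.

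Class 4 semaphorins, which sit in the membrane, were lower or not called. SEMA4C, a ligand of PLXNB2, had 548 and 457 counts (29.29 and 23.99 FPKM) and was 1.21-fold lower (1.07 to 1.37). SEMA4F had 71 and 37 counts (2.33 and 1.15 FPKM) and was 1.91-fold lower (1.29 to 2.97). SEMA4G had 92 and 60 counts (4.28 and 2.86 FPKM) and was 1.54-fold lower (1.11 to 2.18), just past 1.5-fold. On FPKM with a pseudocount of 1 or 0.1 its log2 ratio was -0.45 or -0.57, short of 1.5-fold. Its exons overlap those of MRPL43 on the other strand over 22.3% of their length in the GENCODE annotation, and the sources used here do not say whether counting used strand, without which reads of this pair cannot be told apart. MRPL43 had 97 and 99 counts. SEMA4D, the ligand of PLXNB1 also called CD100, had 139 and 110 counts and a ratio of 0.785 whose interval (0.604 to 1.01) reached 1. SEMA4B had 107 and 117 counts and a ratio of 1.08 (0.825 to 1.42). Of the 6 genes 4 were lower and 0 higher, where 14.7% of all genes compared were lower and 15.4% higher.

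SEMA6A had the highest level of the semaphorins and held most of the difference in their summed level. It encodes a membrane semaphorin that binds PLXNA2 and PLXNA4. It had 3554 and 2184 counts, or 98.78 and 59.62 FPKM, and was 1.64-fold lower (1.56 to 1.74). It ranked first among semaphorins in both libraries, with 44.1% of their summed FPKM for wild type and 36.6% for the library labelled MEIS1-/-. Summed over the 20 genes, semaphorin FPKM was 223.94 and 162.93, and SEMA6A held 64.2% of that drop. Without SEMA6A the sum was 125.16 and 103.31 FPKM.

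The other class 6 genes did not all share its direction. SEMA6B had 78 and 39 counts (3.77 and 1.85 FPKM) and was 1.995-fold lower (1.36 to 3.05). SEMA6C had 94 and 59 counts (4.58 and 2.82 FPKM) and was 1.60-fold lower (1.15 to 2.27). Both lay far below SEMA6A on the FPKM scale. SEMA6D, a ligand of PLXNA1 known from heart morphogenesis, had 188 and 235 counts (6.07 and 7.80 FPKM) and was 1.24-fold higher (1.02 to 1.51). Its share of the summed semaphorin FPKM was 2.71% for wild type and 4.79% for the library labelled MEIS1-/-. Class 5 and class 7 genes were not called. SEMA5A, whose outer part carries thrombospondin repeats, had 543 and 558 counts and a ratio of 1.02 (0.902 to 1.15), and SEMA5B 25 and 29 counts. SEMA7A, which is anchored by a lipid and binds PLXNC1 and integrins, had 78 and 91 counts and a ratio of 1.15 (0.844 to 1.58).

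**Figure D2:**
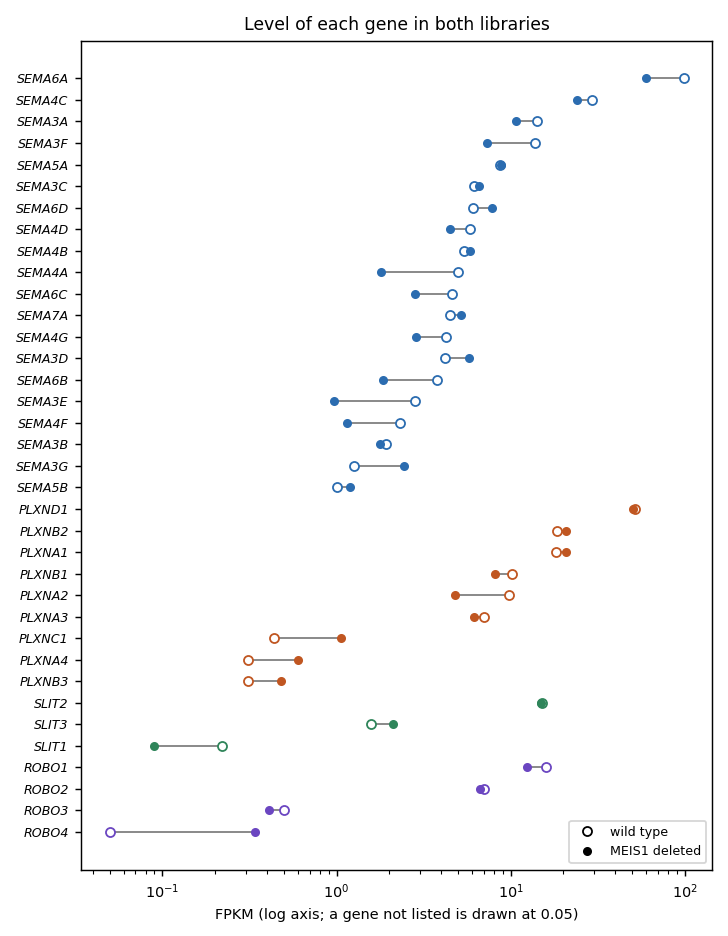
FPKM of all 36 genes (horizontal log axis) in the wild-type library (open points) and in the library labelled MEIS1 deleted (filled points), ordered within each family by the wild-type level. SEMA6A and PLXND1 lead their families in both libraries, and ROBO4, not listed in wild type, is drawn at the left edge.

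Single plexins differed in both directions. Their summed count was 4652 and 4494, with a ratio of 0.956 (0.917 to 0.996). The upper end lay close to 1 and was computed with the main scaling alone. PLXNA2 by itself (588 and 293 counts) dropped by more counts than the sum did, so the other plexins together did not drop. PLXND1, the receptor of SEMA3E and a plexin of developing vessels, was the most abundant plexin in both libraries, with 1909 and 1882 counts (52.16 and 50.51 FPKM). Its ratio was 0.976 (0.915 to 1.04), beside the 2.79-fold lower SEMA3E. PLXNA1 had 872 and 1005 counts (18.30 and 20.72 FPKM) and was 1.14-fold higher (1.04 to 1.25). Within plexin A it stood opposite to PLXNA2, whose share of the summed plexin FPKM was 8.35% and 4.22%. PLXNA3 had 250 and 223 counts and a ratio of 0.883 (0.734 to 1.06), and PLXNA4 18 and 31 counts and a ratio of 1.67 (0.924 to 3.24).

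Plexin B genes also went both ways. PLXNB1 had 381 and 311 counts (10.15 and 8.13 FPKM) and was 1.24-fold lower (1.06 to 1.44). PLXNB2, a receptor of class 4 semaphorins, had 612 and 703 counts (18.37 and 20.72 FPKM) and was 1.14-fold higher (1.02 to 1.27). PLXNB3 was sparse, with 10 and 16 counts and an interval that included 1. PLXNC1, the plexin that binds SEMA7A, had 12 and 30 counts (0.44 and 1.06 FPKM) and was 2.36-fold higher (1.23 to 5.31). Its level stayed far below that of the leading plexins on the FPKM scale.

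Summed plexin FPKM was 116.84 for wild type and 113.18 for the library labelled MEIS1-/-, with PLXND1 at 44.6% in both. The summed FPKM of semaphorins was 1.92 times that of plexins for wild type and 1.44 times for the library labelled MEIS1-/-.

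**Figure D3:**
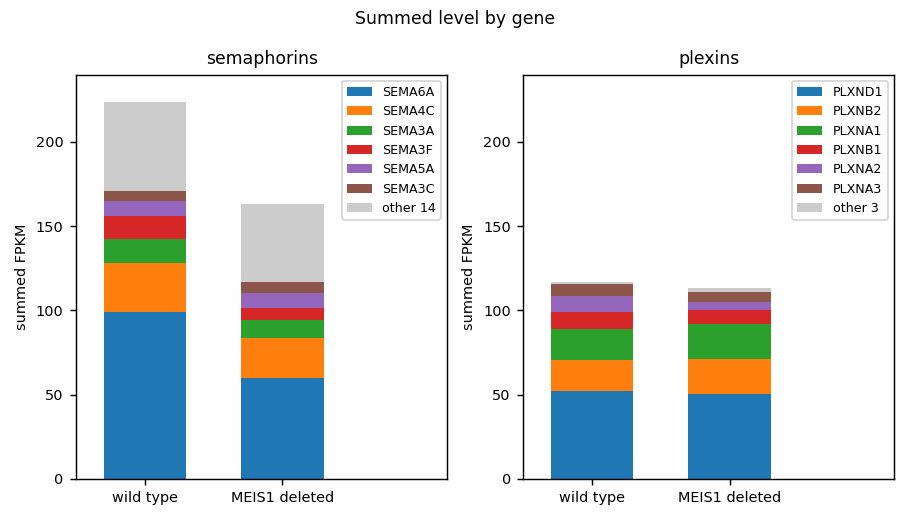
Summed FPKM of the 20 semaphorins (left) and the 9 plexins (right) in each library, stacked by gene for the 6 with the highest wild-type level and the rest together. The semaphorin bar drops from 223.94 to 162.93, mainly in the SEMA6A block, and the plexin bar from 116.84 to 113.18.

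No SLIT gene was called lower. SLIT2, known for guiding axons and endothelial cells, made up 89.4% of the SLIT FPKM for wild type and 87.1% for the library labelled MEIS1-/-, with 391 and 392 counts (15.09 and 14.86 FPKM) and a ratio of 0.992 (0.860 to 1.14). SLIT3 had 80 and 110 counts (1.57 and 2.11 FPKM) and was 1.36-fold higher (1.01 to 1.84). SLIT1 was below the minimum, with 9 and 4 counts.

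Among the receptors, ROBO1 had 624 and 490 counts (15.88 and 12.50 FPKM) and was 1.29-fold lower (1.14 to 1.45). ROBO2 had 319 and 311 counts, 29.9% and 33.6% of the ROBO FPKM, and a ratio of 0.965 (0.823 to 1.13). ROBO3, a receptor of crossing axons, had 12 and 10 counts and an interval that included 1. ROBO4, which is largely restricted to endothelium, had 0 and 7 counts. Set against the 3 counts that a wild-type count of 0 allows, 7 counts taken as exact are 2.31-fold higher. With counting error in both counts, the lower end of the interval was 1.43. The gene was below the minimum for comparison.

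Deposited gene lengths, which in tables of this layout are weighted over a gene's transcripts, differed by over 1% between libraries for 8 of the 36 genes. The largest shift was in PLXNA4, at 11225 and 9578 bases on few counts, and among genes with at least 50 counts in SEMA6D, at 5924 and 5649 bases with 7 transcripts listed. For SEMA3E the lengths were 6321 and 6380 bases, for SEMA4F 5820 and 6023, and for SEMA4G 4117 and 3947. SEMA6A, PLXNA2 and PLXND1 had 1 transcript listed and 1 length. Exons of 8 of the 36 genes overlap those of a gene on the other strand in GENCODE. On the same strand the largest overlap is that of SRPK3 (2 and 0 counts) with 20.4% of the exon length of PLXNB3. For 9 of the 36 genes a count was not whole within 0.005, so some of their reads were divided between genes, namely SEMA3E, SEMA4D, SEMA4F, SEMA5A, SEMA6D, PLXNA1, PLXNA2, PLXNA3 and PLXNA4.

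Genes that work with these ligands and receptors were taken from 6 lists. The counts for each list stand beside 15.4% higher and 14.7% lower among all 14381 genes compared. These short lists were not tested against those shares. Of 8 co-receptors and partners of semaphorin signalling compared, 3 were higher, 2 lower and 3 included 1, with a median log2 ratio of 0.055. The integrin genes ITGA1 and ITGB1, which form a receptor of SEMA7A, had 126 and 204 counts and 11140 and 16763 counts, and were 1.60-fold (1.28 to 2.02) and 1.49-fold (1.45 to 1.53) higher. L1CAM, an adhesion molecule that joins neuropilin 1 in SEMA3A signalling, had 562 and 383 counts (21.39 and 14.32 FPKM) and was 1.48-fold lower (1.30 to 1.69). The neuropilin genes, chosen after their values were seen, differed little. NRP1 had 733 and 882 counts (23.78 and 28.07 FPKM) and was 1.19-fold higher (1.08 to 1.32), and NRP2 had 2114 and 2100 counts and a ratio of 0.983 (0.925 to 1.04).

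Of 8 surface partners of SLIT and ROBO, 3 were higher, 3 lower and 2 included 1 (median -0.048). The heparan sulphate carriers GPC1 and SDC3 were both 1.23-fold higher (1.09 to 1.39 and 1.08 to 1.41), and UNC5B, a partner of ROBO4, was 1.20-fold lower (1.08 to 1.34). Of 23 effectors of plexins, 5 were higher (21.7%, background 15.4%), 2 lower (8.7%, background 14.7%) and 16 included 1 (median 0.051). MICAL2, an enzyme that oxidises actin, had 100 and 256 counts (4.87 and 12.23 FPKM) and was 2.52-fold higher (2.00 to 3.23). DPYSL3, of the collapsin response mediator family, had 735 and 1156 counts (27.56 and 42.58 FPKM) and was 1.56-fold higher (1.42 to 1.71).

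Of 14 effectors of ROBO receptors, 3 were higher, 3 lower (21.4% each, background 15.4% and 14.7%) and 8 included 1 (median -0.043). PAK1, a kinase downstream of RAC, had 386 and 266 counts (21.51 and 14.58 FPKM) and was 1.46-fold lower (1.25 to 1.72), and the kinase gene ABL1 was 1.23-fold lower (1.12 to 1.36). Of 9 small GTPases and actin regulators, 2 were higher, 1 lower and 6 included 1 (median 0.067). LIMK2 was 1.37-fold higher (1.15 to 1.64) and LIMK1 1.18-fold lower (1.05 to 1.34), both kinases of the actin-severing protein cofilin.

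The list of netrins and their receptors also held RGMA and RGMB, genes of repulsive guidance molecules. It shared UNC5B and DCC with the list of SLIT and ROBO partners. Of its 10 genes compared, 6 were lower, 0 higher and 4 included 1 (median -0.43), where 14.7% of all genes compared were lower. RGMA (29 and 10 counts), the shared UNC5B and NTNG1 were among those lower. NTNG1 had the lowest ratio of the genes compared in this list, on 21 and 4 counts. UNC5D had 208 and 109 counts (5.44 and 2.80 FPKM) and was 1.92-fold lower (1.52 to 2.45), and NTN4 had 100 and 53 counts (5.27 and 2.74 FPKM) and was 1.89-fold lower (1.35 to 2.71). NEO1, a netrin receptor of broad expression, was 1.22-fold lower (1.11 to 1.33).

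**Figure D4:**
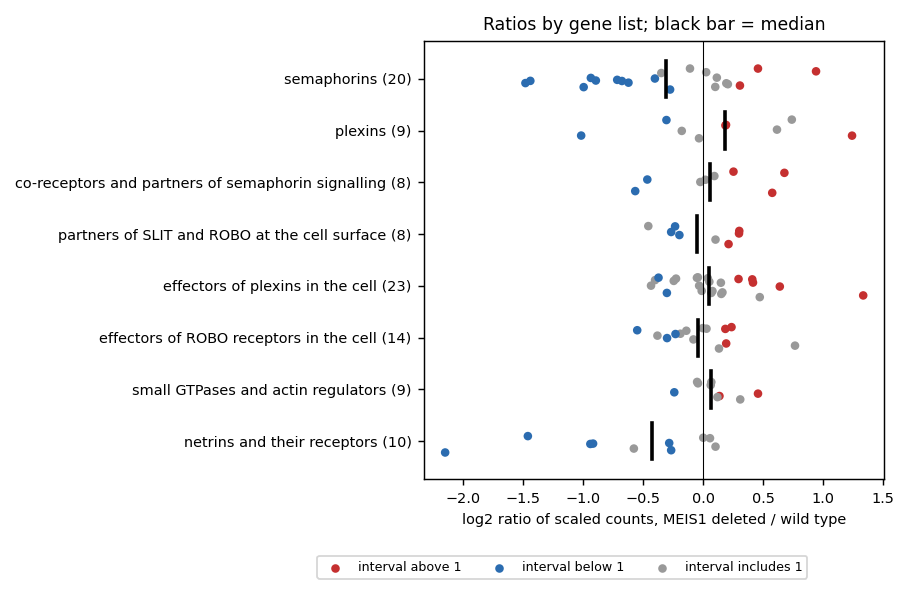
Log2 ratios of scaled counts (horizontal axis) for semaphorins, plexins and 6 lists of partner genes, with the number of genes compared in brackets. Each point is a gene, coloured by whether its 95% counting interval lies above, below or across 1. The black bar is the list median, which is lowest for the netrin list (-0.43) and semaphorins (-0.31).

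Markers of cell types that such cultures can hold also differed between these libraries. The counts are of markers compared, beside 14.7% lower and 15.4% higher among all genes compared. The FPKM sums cover every reported gene of a list, also those below the minimum. Of 9 primitive streak and nascent mesoderm markers compared, 9 were lower, and the summed FPKM of the list was 174.27 for wild type and 50.29 for the library labelled MEIS1-/-, where MESP2 was at 0. Of 10 endothelial markers, 9 were higher and 0 lower, with sums of 199.50 and 310.07 FPKM and CLDN5 at 0 in both. Of 8 pluripotency markers, 6 were lower and 0 higher (868.33 and 657.02 FPKM), and of 9 cardiac and lateral mesoderm markers, 7 were higher and 1 lower (346.58 and 428.04 FPKM, TBX5 at 0 in wild type). Of 9 endoderm markers, 3 were lower and 1 higher (157.67 and 114.93 FPKM, TTR at 0 in wild type). Of 6 neural markers, 3 were lower and 0 higher (227.12 and 221.83 FPKM), with SOX1, NEUROG2, ELAVL3 and NEUROD1 at 0 in both. Of 5 neural crest markers, 2 were lower and 1 higher (96.84 and 107.98 FPKM), with FOXD3 at 0 in both. Of 5 blood markers, 2 were higher and 1 lower (34.75 and 46.5 FPKM), with HBZ, HBG1 and HBG2 at 0 in both and HBE1 and GATA1 at 0 in wild type. The part of cell composition in the ratios of semaphorins and plexins was not tested.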

How the data were processed

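Per the labels' protocols, an Illumina TruSeq RNA kit was used on 2 µg of total RNA. BWA, Bowtie, RSEM and build hg19 stand in the submitters' processing notes, without versions, and the series' design text adds TopHat, Cufflinks and an analysis of variance. Which of these made the tables is not given in the sources used here. The authors deposited expected counts (estimated counts, not scaled), FPKM values (scaled for gene length and depth) and gene lengths, per the file headers. Gene numbers were matched to symbols in a RefSeq table of GRCh38.p14 (18413 of 18518 matched). A gene absent from a table was given 0 there.

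Expected counts were rounded and brought to a common depth with TMM (edgeR 4.0.16, R 4.3.3), which gave effective sizes with a ratio of 1.01. Log2 ratios used a pseudocount of 1. Intervals are exact Clopper-Pearson 95% intervals conditional on the sum of both counts, without pseudocount. A count of 0 allows up to 3 counts. Reads copied by PCR are not independent, so both the intervals and this limit cover counting error alone. No model and no p-value was possible with 1 library per genotype. On simulated counts for 18518 genes, 45 of 50 genes raised 1.5-fold, 49 of 50 lowered 2-fold, 50 of 50 raised 3-fold and 50 of 50 lowered 3-fold were called in the true direction. The simulation held counting error alone, which is what the intervals assume, and changed only genes with a mean of at least 50 counts. It checks the computation and does not cover sparse genes or variation between cultures.

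The genes, the 6 partner lists, the 8 marker lists and the rules were chosen with earlier results of these data known. Values are given in full for genes of the families with at least 50 counts and an interval that excluded 1. Up to 3 genes of a partner list have a fold and interval, some with counts or FPKM. They had the largest ratios in either direction among those with at least 50 counts. For 3 of these lists fewer are given, and marker lists are given by counts and sums. Of the blood marker list, 1 gene is not reported here.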

Additional observations from a re-analysis of the deposited data

How the results depend on the processing

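All 9 alternatives were planned with the other rules: DESeq2 size factors, total counts, a pseudocount of 0.5, counts not rounded, FPKM with a pseudocount of 1 or 0.1, minimum counts of 1 or 50, and a fold of 2. For single genes of the families, 204 of 204 values stayed within their main counting interval and no called gene changed direction. Most of these alternatives change a ratio little beside the width of its interval, so that check is weak. The 112 medians moved by less than the median half-width of the genes' intervals (0.35 on the log2 scale), and 68 of 78 counts stayed within 1.5 times. That limit for medians is loose, since it is wider than the semaphorin median itself (-0.31). The semaphorin median ran from -0.29 with FPKM and a pseudocount of 1 to -0.38 with a minimum of 50 counts. The plexin median changed sign within the limit, from 0.18 to -0.11 with a minimum of 50 counts. A fold of 2 left 3 genes of the families lower and 1 higher, 2 semaphorins lower and 0 higher, and 424 and 417 of all genes. With a minimum of 50 counts, where fewer genes are compared, 587 of all genes were at least 1.5-fold lower and 506 higher, and 1 gene of the families was higher by that fold, as with FPKM and a pseudocount of 1. By the main rule 9 genes of the families were at least 1.5-fold lower. On FPKM these were 7 with a pseudocount of 1 and 8 with 0.1, of which 6 and 7 were semaphorins. Counting intervals need whole counts, so calls by interval have no value for counts not rounded or for FPKM. No paired analysis was possible because there was 1 library per genotype, and for the same reason no library could be left out. At this depth the 6 genes compared with under 50 counts had wide intervals, and 1 of them was called.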
